A study of Mus musculus with 6 samples.

Results

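The mitosis and G2/M genes examined here are 41 genes that drive or carry out cell division, among them mitotic cyclins, kinases, kinesins, kinetochore subunits and spindle proteins. They were taken by gene symbol from a deposited table of 47643 genes, and all 41 were found in it, each in 1 row. All 41 passed the filter on low counts that left 17012 genes for testing.

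Entry into mitosis is driven by the kinase CDK1 bound to B-type cyclins, after cyclin A has acted in S and G2 phase. Aurora and Polo-like kinases then build the spindle, the checkpoint holds chromosome separation until kinetochores are attached, and the anaphase-promoting complex (APC/C) ends mitosis by marking cyclin B and securin for destruction. The genes are transcribed together late in the cell cycle, under the MuvB complex with B-MYB and FOXM1, largely through a promoter element called the CHR (cell cycle genes homology region) and through CCAAT boxes bound by NF-Y. Most hepatocytes of an adult liver are quiescent and hold little of these transcripts, whereas dividing tumor cells hold much.

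The libraries came from liver tumors of FVB/N mice carrying the LAP-tTA and tetO-MYC transgenes, in which a liver promoter drives a transactivator that doxycycline blocks. Both groups drank doxycycline at 100 mg/L until 4 weeks of age and then had MYC on for 8 weeks. For the next 2 weeks, 1 group received vehicle and the other 50 mg/kg/day of GSK3326595, which blocks PRMT5, an enzyme that methylates arginines. Each group has 3 libraries, and no label says whether these are separate animals, so the p-values reflect only how these libraries vary, which may be technical variation; no untreated normal liver was analysed here. The tissue is labelled as tumor, whereas the extraction protocol names liver, so how much non-tumor liver each sample held is not known.

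Library totals lay between 25814339 and 33621083 expected counts, of which the 41 genes took from 0.239% to 0.577%. GSK3326595 replicate 2 stood apart on the first principal component, which held 38.1% of the variance: it scored 103.1, against -50.2 to 9.37 elsewhere. Looked up after the values were seen, the fetal liver gene Afp had 294 CPM there and 3837 to 13210 CPM elsewhere. The adult hepatocyte gene Cyp2e1 had 1910 CPM there and 4.05 to 212 CPM elsewhere. Not all such genes stood apart: this library was lowest for 3 of 6 fetal liver and tumor markers and highest for 4 of 12 hepatocyte markers. H19 had 28420 CPM there and 12590 to 41730 elsewhere, and Apoa1 2113 CPM there and 962 to 5062 elsewhere. Their part in the results below was not tested. All 12 hepatocyte markers were above 0 in every library. Levels below are CPM, counts scaled to library size after TMM scaling, which adjusts for library composition. Prmt5, the drug's target, had 69.9, 49.0 and 84.9 CPM in vehicle and 51.3, 96.0 and 129.9 CPM in GSK3326595 (edgeR adjusted p = 0.753); the transcript of an inhibited enzyme does not check the labels.

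Most of the 41 genes shared their highest and lowest library, and for most the groups overlapped. Their summed level was 3858, 3010 and 4574 CPM in vehicle replicates 1, 2 and 3, and 2326, 2752 and 5371 CPM in GSK3326595 replicates 1, 2 and 3. The treated group thus held the highest and the 2 lowest libraries, and the vehicle libraries lay between them. GSK3326595 replicate 3 was the highest library for 38 of the 41 genes, against 21.3% of all genes tested, and GSK3326595 replicate 1 the lowest for 35, against 20.5%. In these bulk samples fewer dividing cells and less RNA per dividing cell cannot be told apart.

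Pairs of libraries within a group differed as much as libraries across groups. All 41 genes were lower in GSK3326595 replicate 1 than in replicate 3 of the same group, by a median log2 difference of -1.28, and all 41 were lower in vehicle replicate 2 than in vehicle replicate 3, by -0.638. Vehicle replicate 3 was above GSK3326595 replicate 1 in all 41 genes and above GSK3326595 replicate 3 in 3. Vehicle replicate 2 and GSK3326595 replicate 2 were nearly level, with 22 genes higher in the first and a median log2 difference of 0.0244. The SD of log2 CPM within the GSK3326595 group exceeded that within vehicle for all 41 genes, with medians of 0.691 and 0.322. Among all genes tested it did so for 75.4%, with medians of 0.434 and 0.255.

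**Figure D1:**
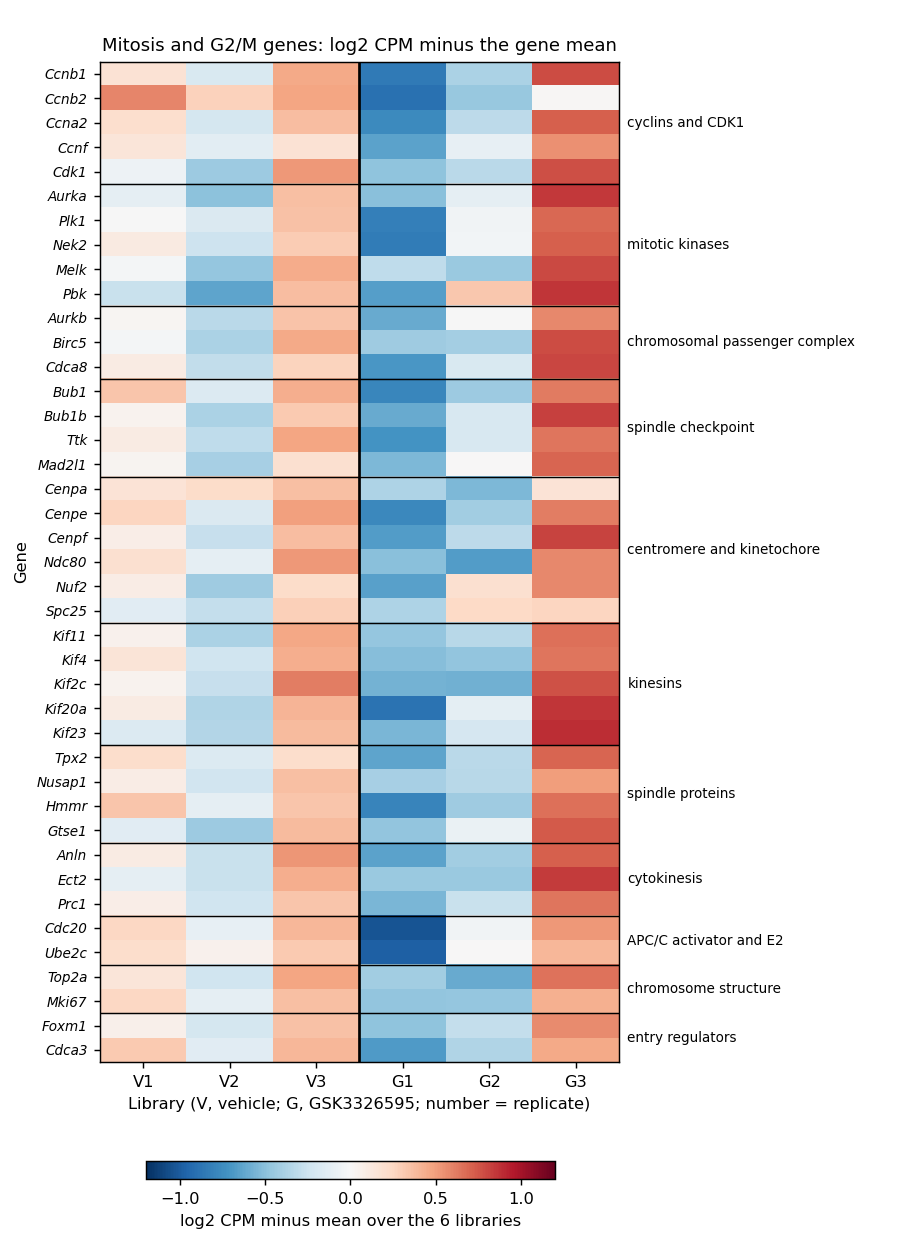
Level of each of the 41 genes (rows, grouped by role) in the 6 libraries (columns), as log2 CPM minus the gene's mean over the libraries; red is above and blue below that mean. The column of GSK3326595 replicate 3 is red in nearly every row and that of GSK3326595 replicate 1 blue in every row. The rows of Ccnb2, Cenpa and Spc25 differ from the rest in having their highest value in a vehicle library.

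The question of the comparison is whether PRMT5 inhibition alters these genes in MYC-driven tumors. By edgeR's quasi-likelihood test with Benjamini-Hochberg adjustment over all genes, 0 of the 41 passed the threshold of 0.05, where 0% of all genes did; their adjusted p ran from 0.494 to 0.999. At an unadjusted p under 0.05, 1 gene (Ccnb2) was lower, against 3.81% of all genes, and 0 were higher, against 5.45%. DESeq2 called 0 of the 41 in either direction, while it called 0.588% of all genes lower and 1.09% higher. The groups did not overlap for 2 of the 41 genes, Ccnb2 and Cenpa, both lower in GSK3326595, against 7.66% of all genes lower and 6.72% higher. At the unadjusted p and by overlap, the members' share was thus below that of all genes in both directions.

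The log2 difference, GSK3326595 minus vehicle, was below 0 for 24 of the 41 genes, against 46.9% of all genes tested, with a median of -0.05 where that of all genes was 0.03. With no scaling beyond total counts 18 were below 0 and the median was 0.05, while the median of all genes moved to 0.12. The SE of a gene's difference ran from 0.22 to 0.44. Leaving out GSK3326595 replicate 3 put 39 of the 41 below 0, with a median of -0.48. In that fit 13 genes were lower at an unadjusted p under 0.05, against 3.72% of the genes tested there, and 0 passed the adjusted threshold. Leaving out vehicle replicate 2 put 36 below 0, with a median of -0.18. By limma-voom 32 were below 0 (median -0.13), as were 32 with the replicate number as a block (median -0.12). In the other direction, only 8 genes were below 0 without GSK3326595 replicate 1, and 10 without GSK3326595 replicate 2 or without vehicle replicate 3.

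**Figure D2:**
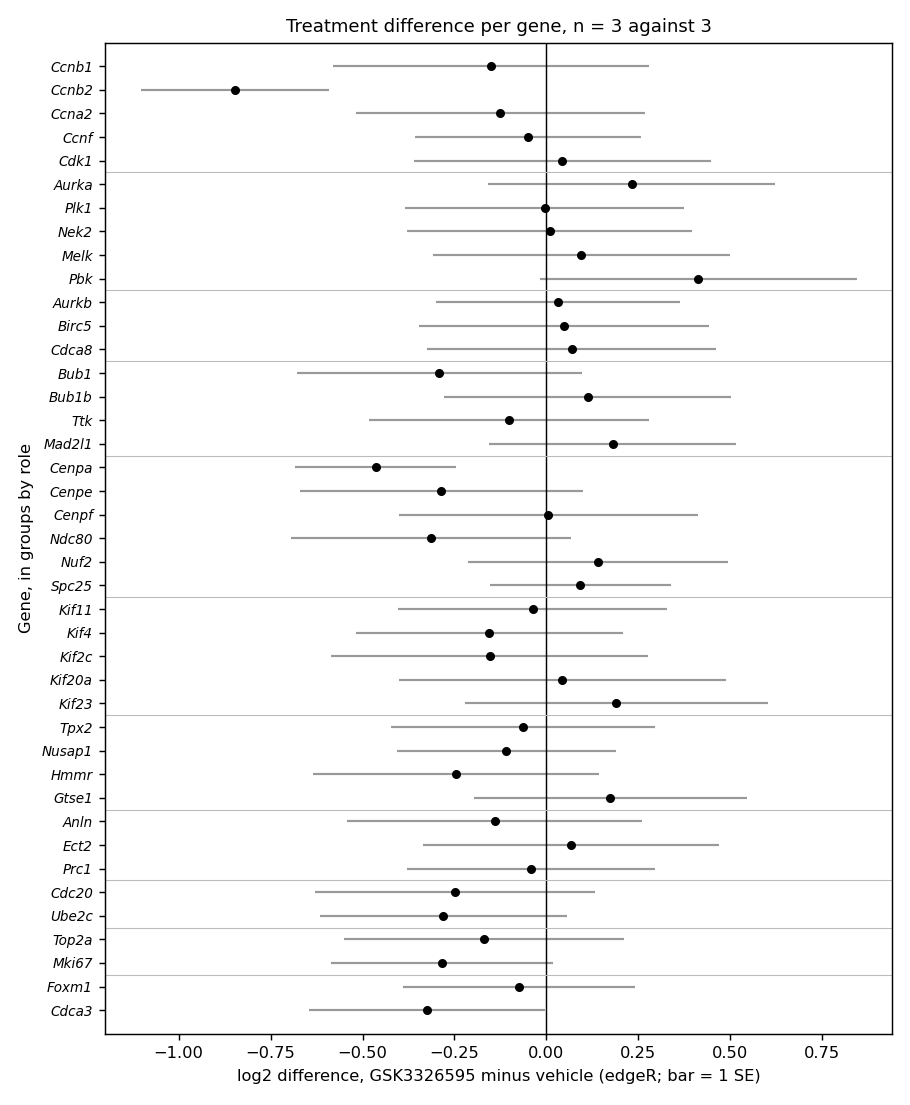
Log2 difference between GSK3326595 and vehicle for each of the 41 genes (points), with 1 SE to either side (bars), in the order of their roles. The bars of most genes cross 0, and Ccnb2 at -0.85 lies farthest from it.

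The promoters of the genes were read for the elements that G2/M promoters are known to share. The members were chosen as mitosis genes, whose promoters are known for these elements, so a high share was foreseeable. Its relation to the shared order of libraries was not tested. RefSeq promoters of build GRCm38.p6, running from 250 bases before to 50 bases after a transcription start, were at hand for 35 of the 41 genes (38 starts); Ccna2, Aurkb, Foxm1, Pbk, Tpx2 and Kif20a had no entry. A CHR, searched as TTTGAA or TTCGAA on either strand, was in 28 of the 38 promoters (73.7%), against 19.2% of all 32851 promoters of the same length. A CCAAT box on either strand was in 30 (78.9%), against 37.4%. Both were in 25 (65.8%), against 7.52%. Of the 39 CHR matches, 19 began after the start, whereas only 3 of 72 CCAAT matches did. With the part after the start left out, the CHR share was 34.2%, against 17.1% of all promoters, and the CCAAT share 78.9%, against 33.8%. These are matches of letters and not measured binding, and windows of a gene with more than 1 start can overlap.

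**Figure D3:**
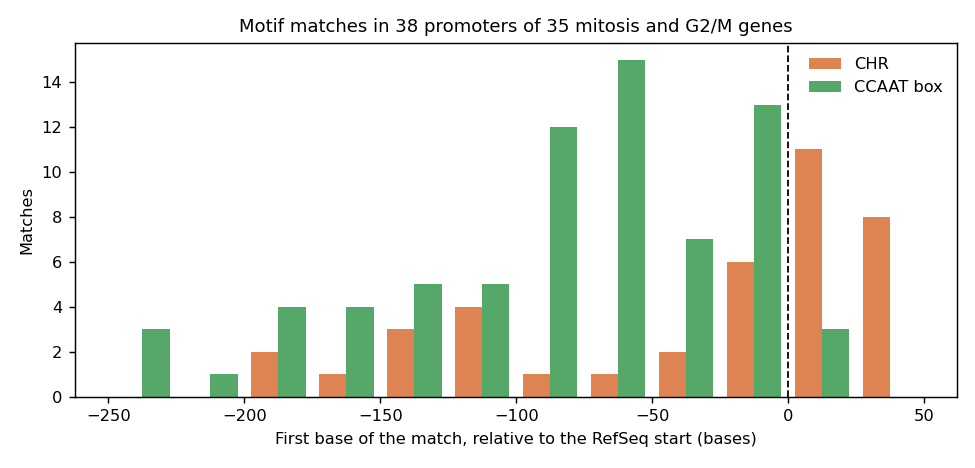
Position of every CHR match (orange) and CCAAT match (green) in the 38 promoters, as the distance of its first base from the RefSeq start; bars count matches in 25-base bins. CCAAT matches gather before the start, 47 of 72 within the 100 bases before it, and 19 of 39 CHR matches lie after it.

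The stretches before the start are shown for both B-type cyclins and their kinase, for the most abundant gene pair and for survivin, each read on the gene's strand from 5′ to 3′. Only bases outside annotated exons are given, and capitals mark CHR and CCAAT matches on either strand (a CCAAT box on the other strand reads ATTGG, a CHR reads TTCAAA).
Ccnb1, chr13:100786571-100786636, minus strand, bases -150 to -85: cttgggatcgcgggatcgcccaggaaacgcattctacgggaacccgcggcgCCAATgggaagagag
Ccnb2, chr9:70421555-70421704, minus strand, bases -150 to -1: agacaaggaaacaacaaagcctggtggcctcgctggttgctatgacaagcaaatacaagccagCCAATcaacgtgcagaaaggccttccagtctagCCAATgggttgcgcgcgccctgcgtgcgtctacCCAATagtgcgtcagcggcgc
Cdk1, chr10:69352939-69353062, minus strand, bases -150 to -27: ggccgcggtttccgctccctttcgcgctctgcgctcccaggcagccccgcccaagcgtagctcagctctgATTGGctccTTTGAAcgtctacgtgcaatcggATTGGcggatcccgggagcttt
Top2a, chr11:99024190-99024339, minus strand, bases -150 to -1: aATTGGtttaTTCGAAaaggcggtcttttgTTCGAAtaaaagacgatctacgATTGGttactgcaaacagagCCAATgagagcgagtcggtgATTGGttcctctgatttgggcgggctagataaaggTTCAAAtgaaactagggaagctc
Mki67, chr7:135716380-135716529, minus strand, bases -150 to -1: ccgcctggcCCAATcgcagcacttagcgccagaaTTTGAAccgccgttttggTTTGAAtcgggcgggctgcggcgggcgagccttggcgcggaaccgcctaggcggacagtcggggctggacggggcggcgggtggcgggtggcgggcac
Birc5, chr11:117849087-117849236, plus strand, bases -150 to -1: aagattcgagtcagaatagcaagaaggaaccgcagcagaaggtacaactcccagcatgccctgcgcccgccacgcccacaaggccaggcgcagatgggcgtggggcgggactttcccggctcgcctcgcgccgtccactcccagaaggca
Ccnb2 carried 3 CCAAT boxes there, Top2a 4 with 3 CHR matches, and Mki67 2 CHR matches, while the stretch of Birc5 carried neither.

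A CHR match lay after the start in 17 genes, and for 3 of them the first 30 bases from the RefSeq start are given with the CHR in capitals. Ccnb2 and Cenpa are the pair whose groups did not overlap, and Hmmr, like most members, was highest in GSK3326595 replicate 3 and lowest in GSK3326595 replicate 1.
Ccnb2, chr9:70421525-70421554, minus strand: ggtaTTTGAAtcgcggaccgggcggtggac
Cenpa, chr5:30666886-30666915, plus strand: gaggggcgggtgatttTTTGAActgctggc
Hmmr, chr11:40733408-40733437, minus strand: gaggtaaaTTTGAAttcaggcgagctgaca
All 3 stretches carried a CHR match, and its relation to the treatment difference was not tested.

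Among the cyclins and CDK1, Ccnb2 stood apart. Cyclin B2, whose protein sits largely at the Golgi, is encoded by Ccnb2 (GRCm38 chromosome 9, 70407692 to 70421547, minus strand). It had 71.6, 57.5 and 65.9 CPM in vehicle and 25.6, 34.8 and 48.1 CPM in GSK3326595. Every treated library lay below every vehicle library, with means of 65.0 ± 7.11 and 36.1 ± 11.3 CPM (SD, n = 3 each). The log2 difference was -0.85 ± 0.26 (SE, edgeR unadjusted p = 0.0136, adjusted p = 0.494), and it stayed between -1.09 and -0.65 when any 1 library was left out. Its unadjusted p was no longer under 0.05 without vehicle replicate 1, without vehicle replicate 3 or without GSK3326595 replicate 2. Its counts were whole numbers in all libraries. A pseudogene row, Ccnb2-ps, held 24, 33 and 30 expected counts in vehicle and 18, 25 and 13 in GSK3326595, against 1689 to 2247 and 793 to 1332 for Ccnb2.

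The other B-type cyclin did not follow it. Ccnb1, the cyclin that most CDK1 activity at mitotic entry depends on (chromosome 13, 100778650 to 100786570, minus strand), had 119.8, 93.2 and 145 CPM in vehicle. In GSK3326595 it had 59.0, 81.4 and 182 CPM, so its groups overlapped (log2 difference -0.15 ± 0.43). Divided by Ccnb1 CPM, Ccnb2 CPM gave 0.598, 0.616 and 0.454 in vehicle and 0.433, 0.427 and 0.264 in GSK3326595, with no overlap between the groups. This ratio was formed after the values were seen and is a description. The expected counts of Ccnb1 were not whole in 5 libraries, although no other gene's exons overlap it. Its level may thus depend in part on how reads were assigned. Against Cdk1 the ratio was 0.863, 0.898 and 0.531 in vehicle and 0.412, 0.503 and 0.324 in GSK3326595, again without overlap.

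Cdk1 itself (chromosome 10, 69335146 to 69352938, minus strand) had 83.0, 64.0 and 124 CPM in vehicle and 62.0, 69.1 and 148 CPM in GSK3326595. The replicate 3 libraries of both groups were the highest and the others close together (log2 difference 0.04 ± 0.40). Ccna2, cyclin A2 of S and G2 phase, had 165, 124 and 185 CPM in vehicle and 84.5, 114.9 and 235 CPM in GSK3326595. Ccnf, an F-box protein of G2 phase that is no CDK partner, ranged from 35.9 to 82.4 CPM, with its lowest and highest values both in GSK3326595.

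**Figure D4:**
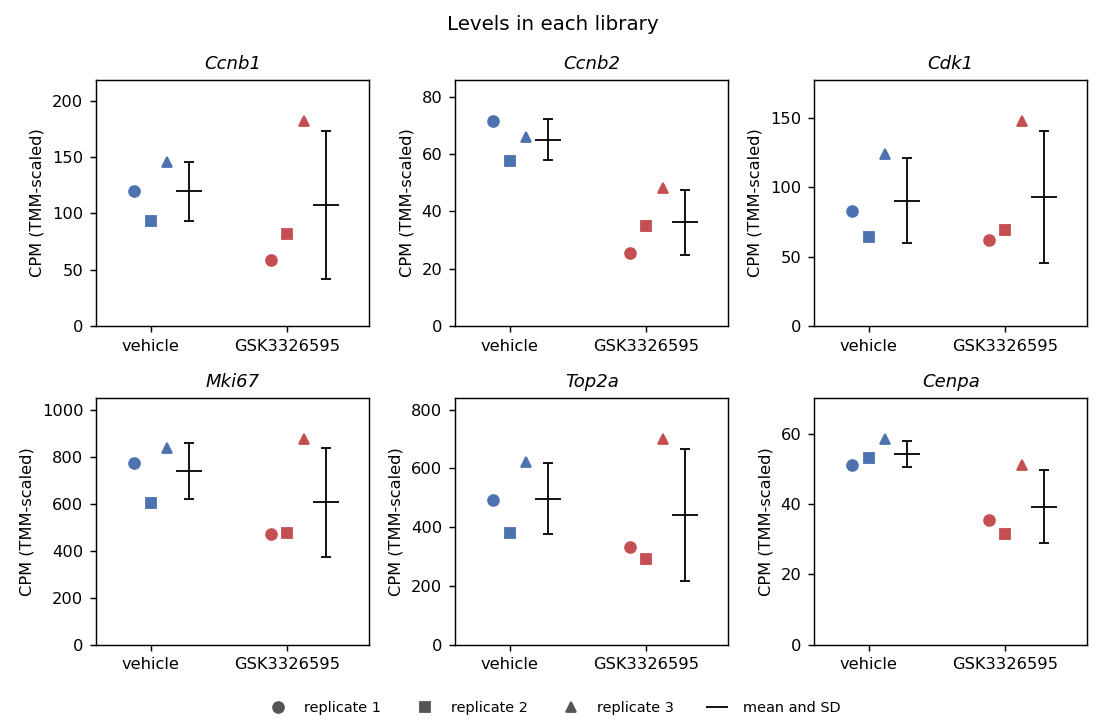
CPM of 6 genes in each library (symbols mark the replicate number; blue, vehicle; red, GSK3326595), with the group mean and SD beside the points. Ccnb2 and Cenpa are the panels in which the groups do not overlap; in the others GSK3326595 replicate 3 lies above all vehicle libraries.

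The mitotic kinases held the member with the largest positive value, and none passed the test. Pbk, a kinase active in mitosis, had 19.2, 14.9 and 29.9 CPM in vehicle and 14.6, 28.96 and 41.8 CPM in GSK3326595 (log2 difference 0.41 ± 0.43). Aurka, which matures centrosomes and helps build the spindle, had 52.7, 40.3 and 72.5 CPM in vehicle and 40, 52.6 and 101.7 CPM in GSK3326595 (0.23 ± 0.39). Both genes overlapped between the groups and were highest in GSK3326595 replicate 3. Plk1 differed by -0.01 and the centrosomal kinase Nek2 by 0.01, while Melk had 0.09. Plk1 and Nek2 each overlap an antisense gene, and their expected counts were not whole in any library.

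The chromosomal passenger complex corrects wrong attachments of chromosomes to the spindle. The 3 of its genes that are members here differed by 0.03 to 0.07 on the log2 scale. Incenp, also of the complex, was listed with the other G2/M genes, and its log2 difference was 0.23 ± 0.27 with overlapping groups. Birc5, survivin, which holds the complex at the centromere (chromosome 11, 117849251 to 117855743, plus strand), had 81.0, 63.3 and 112.9 CPM in vehicle. In GSK3326595 it had 61.5, 62.3 and 142 CPM, so 2 libraries lay just below the lowest vehicle library and 1 above them all. Aurkb, the kinase of the complex, and Cdca8, borealin, had log2 differences of 0.03 ± 0.33 and 0.07 ± 0.39.

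Genes of the spindle checkpoint, which delays anaphase, spread to both sides of 0. Bub1b, BUBR1, which binds and blocks CDC20, had 88.1, 65.7 and 106.4 CPM in vehicle and 56.0, 74.8 and 150.4 CPM in GSK3326595 (log2 difference 0.11 ± 0.39). Mad2l1, MAD2, the other CDC20 inhibitor, had 46.0, 34.1 and 51.3 CPM in vehicle and 30.9, 44.9 and 73.0 CPM in GSK3326595 (0.18 ± 0.34). The kinases Bub1 and Ttk (MPS1) had -0.29 ± 0.39 and -0.10 ± 0.38. All 4 were highest in GSK3326595 replicate 3 and lowest in GSK3326595 replicate 1.

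At the centromere, Cenpa differed from its neighbours. CENP-A, the histone H3 variant that marks centromeres (Cenpa, chromosome 5, 30666777 to 30674830, plus strand), had 51.2, 53 and 58.4 CPM in vehicle and 35.4, 31.4 and 51.1 CPM in GSK3326595. The groups did not overlap, but GSK3326595 replicate 3 and vehicle replicate 1 were nearly level. The log2 difference was -0.46 ± 0.22 (edgeR unadjusted p = 0.0736, adjusted p = 0.566). Cenpf, a large protein of the outer kinetochore, had 146, 114.4 and 180 CPM in vehicle and 86.8, 111.7 and 243 CPM in GSK3326595 (0.01 ± 0.41). Cenpe, a kinesin that moves chromosomes to the spindle equator, had -0.29 ± 0.39. The 3 measured members of the NDC80 complex, which grips microtubules, gave -0.31 for Ndc80, 0.14 for Nuf2 and 0.09 for Spc25.

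Kinesins are motors of the spindle and midbody, and the 5 besides Cenpe had log2 differences from -0.16 to 0.19. Kif11, which pushes spindle poles apart, had 131.5, 97.9 and 175.5 CPM in vehicle and 92.0, 101.3 and 201 CPM in GSK3326595 (-0.04 ± 0.37). Kif20a and Kif23, needed for cytokinesis, had 0.04 ± 0.44 and 0.19 ± 0.41. Kif4 and Kif2c, which act on microtubule length, had -0.16 ± 0.36 and -0.15 ± 0.43. All 5 were highest in GSK3326595 replicate 3.

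All 7 spindle and cytokinesis genes were highest in GSK3326595 replicate 3, and 6 of them were lowest in GSK3326595 replicate 1. Hmmr, which links microtubules at the poles, had 148, 109.6 and 148 CPM in vehicle and 67.9, 87.6 and 187 CPM in GSK3326595 (-0.25 ± 0.39). Prc1, which bundles the midzone microtubules, had 85.9, 68.8 and 102.4 CPM in vehicle and 55.7, 67.6 and 126.5 CPM in GSK3326595 (-0.04 ± 0.34). Tpx2, which activates Aurora A on the spindle, had -0.06 ± 0.36, Nusap1 -0.11 ± 0.30 and Gtse1 0.17 ± 0.37. Anln, anillin of the contractile ring, had -0.14 ± 0.40, and Ect2, which activates RhoA for cleavage, 0.07 ± 0.40.

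The APC/C activator Cdc20 had 93.7, 73.7 and 103.7 CPM in vehicle and 38.4, 76.6 and 113.3 CPM in GSK3326595 (-0.25 ± 0.38). Its lowest library, GSK3326595 replicate 1, lay far below the other 5. Ube2c, the ubiquitin-conjugating enzyme that works with the APC/C, was likewise at 24.8 CPM in GSK3326595 replicate 1 and between 48.8 and 64.3 CPM in the others.

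The proliferation marker Mki67 (chromosome 7, 135689784 to 135716361, minus strand), whose protein coats mitotic chromosomes, had 775, 604 and 837 CPM in vehicle. In GSK3326595 it had 471, 474 and 875 CPM, so 2 treated libraries lay below all vehicle libraries and 1 above them all (-0.29 ± 0.30). Top2a, the topoisomerase that untangles sister chromatids (chromosome 11, 98992943 to 99024189, minus strand), had 492, 379 and 620.5 CPM in vehicle and 333.4, 293 and 699.5 CPM in GSK3326595 (-0.17 ± 0.38). Top2a showed the same arrangement as Mki67, with the same 2 treated libraries below all vehicle libraries.

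Of the genes that govern entry, Foxm1, the transcription factor of G2/M genes (chromosome 6, 128362967 to 128376146, plus strand), had 38.3, 31.8 and 46.8 CPM in vehicle and 26.4, 30.2 and 54.4 CPM in GSK3326595 (-0.07 ± 0.32). Cdca3, which promotes the breakdown of the CDK1 inhibitor WEE1, had 61.3, 44.97 and 64.9 CPM in vehicle and 30.9, 38.5 and 67.3 CPM in GSK3326595 (-0.32 ± 0.32). Both overlapped between the groups.

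Levels between genes were compared as CPM per kilobase of exon, from the mean over the 6 libraries. On this scale Mki67 (66.8), Top2a (52.1), Cdc20 (44.6), Ccna2 (37.1) and Ccnb2 (33.0) were highest, and Nuf2 (2.67), Ndc80 (2.89) and Kif23 (3.09) lowest. With the longest transcript as the length, 9 of the 10 highest were the same genes, and Top2a came first. On that length Ccnb1 (45.6) stood above Ccnb2 (33.0), and Mad2l1 (6.18) stood below Kif23 (7.18) among the lowest. Library by library, Mki67 exceeded Top2a in 6 of 6, Top2a exceeded Cdc20 in 5, Cdc20 exceeded Ccna2 in 5 and Ccna2 exceeded Ccnb2 in 4. At the low end Kif23 exceeded Ndc80 in 3 libraries and Ndc80 exceeded Nuf2 in 5. These steps were not tested.

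Proportions among the genes gave a partly different set of exceptions than levels did. Relative to the median of the 41 genes in each library, Ccnb2 lay 0.27, 0.30 and 0.02 above it on the log2 scale in vehicle. In GSK3326595 its values on that scale were -0.45, -0.47 and -0.60. Cdca3 was at 0.04, -0.06 and 0.00 in vehicle and at -0.18, -0.32 and -0.12 in GSK3326595. In the other direction, Mad2l1 was at -0.37, -0.46 and -0.34 in vehicle and at -0.18, -0.10 and 0.00 in GSK3326595, and Nuf2 also lay higher in all 3 treated libraries. These 4 were the members whose groups did not overlap on this scale: 2 lower, where 0.905% of all genes were, and 2 higher, where 7.22% were. Cenpa, apart by level, overlapped here, at -0.22, 0.18 and -0.15 in vehicle and 0.02, -0.62 and -0.51 in GSK3326595. The members themselves set the scale, and their median ran from 5.13 to 6.19 log2 CPM over the libraries. Subtracting it adds that pattern to genes that do not share it, so these shares of all genes are not a like background. No test is given.

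Other G2/M genes, 65 written down from general knowledge, mostly shared these extremes. GSK3326595 replicate 3 was the highest library for 51 of them and GSK3326595 replicate 1 the lowest for 41, and their median log2 difference was -0.13. By edgeR 0 passed the adjusted threshold, and 2 of the 65 were lower at an unadjusted p under 0.05, against 3.81% of all genes. One was Hjurp, the chaperone that deposits CENP-A, with 140.1, 138 and 115.1 CPM in vehicle and 68.4, 101.0 and 106.0 CPM in GSK3326595 (log2 difference -0.51 ± 0.22, adjusted p = 0.538). The other was Fam64a, with 5.70, 5.10 and 2.95 CPM in vehicle and 0.806, 0.558 and 2.89 CPM in GSK3326595 (-1.70 ± 0.66, adjusted p = 0.524). Neither overlapped between the groups, which held for 7.66% of all genes in the lower direction.

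DNA replication genes, which act in S phase, shared the top of the order but not the bottom. Of 36, 33 were highest in GSK3326595 replicate 3, but 24 were lowest in vehicle replicate 2 and 9 in GSK3326595 replicate 1. Their median log2 difference was 0.12, 26 of 36 were above 0, and 0 passed the adjusted threshold by edgeR, with 0 at an unadjusted p under 0.05 and 0 by DESeq2. The median log2 CPM of the 41 mitosis genes exceeded that of the replication genes by 0.549, 0.600 and 0.157 in vehicle and by 0.0159, 0.0579 and 0.0703 in GSK3326595. These values, formed after the levels were seen, did not overlap between the groups. As a ratio of summed CPM, however, the groups did overlap, at 1.98, 2.09 and 1.59 in vehicle and 1.42, 1.47 and 1.66 in GSK3326595.

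Of 22 regulators of these genes, from the MuvB, DREAM, E2F and NF-Y complexes, 15 were above 0. Their log2 differences ran from -0.42 to 0.69 with a median of 0.03, and 0 passed the adjusted threshold by edgeR. Tfdp2, an E2F partner, was the only 1 of them at an unadjusted p under 0.05, where 3.81% of all genes were lower. It had 79.1, 74.6 and 72.7 CPM in vehicle and 50.1, 59.6 and 60.1 CPM in GSK3326595 (-0.42 ± 0.15, edgeR adjusted p = 0.522). The 15 listed APC/C genes had a median of -0.01. They are core subunits, which most cells hold at all times, and an activator other than Cdc20.

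Markers of other cells differed between the libraries as well, and their part in the results above was not tested. The summed hepatocyte markers were 38480, 44060 and 20160 CPM in vehicle and 32000, 34440 and 11220 CPM in GSK3326595, and 10 of the 12 were lowest in GSK3326595 replicate 3, where 38 of the 41 mitosis genes were highest. All 14 markers of T and NK cells together summed to between 7.01 and 8.97 CPM in vehicle and to 39.8, 41.7 and 19.8 CPM in GSK3326595 replicates 1, 2 and 3. Of these, 10 passed the filter. All 10 were higher at an unadjusted p under 0.05 by edgeR, against 5.45% of all genes. DESeq2 called 9 higher at its adjusted threshold, against 1.09% of all genes. Some passed the filter only through the GSK3326595 libraries, as Cd6 did with 0.159, 0.102 and 0.0597 CPM in vehicle. Part of this direction was thus set by the filter. Cd3d and Cd8b1 were each at 0 in 1 library. The 10 macrophage markers summed to between 323 and 466 CPM in vehicle and to 1003, 443.5 and 401 CPM in GSK3326595. In GSK3326595 replicate 1, lowest for most mitosis genes, 7 of the 10 macrophage markers were at their highest and 2, Clec4f and Marco, at their lowest. The 8 stellate cell and fibroblast markers summed to 131, 239 and 542.5 CPM in vehicle and 582, 715 and 786 CPM in GSK3326595, without overlap. Col3a1 alone held 44.0 to 246 CPM in vehicle and 254 to 408 CPM in GSK3326595. All 8 log2 differences were above 0. Gene by gene the groups did not overlap for 2 of the 8, Col1a2 and Col3a1, both higher, against 6.72% of all genes.

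**Figure D5:**
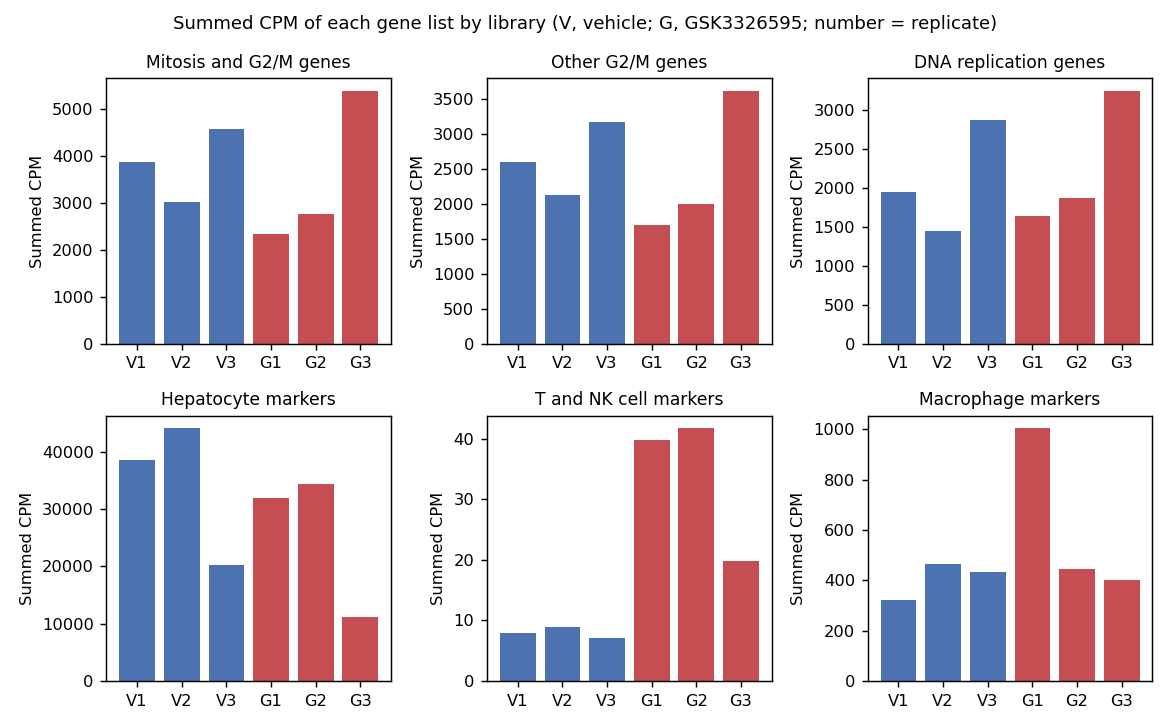
Summed CPM of 6 gene lists (panels) in the 6 libraries (blue, vehicle; red, GSK3326595). The 3 panels of cell cycle genes peak in GSK3326595 replicate 3, where the hepatocyte markers are lowest at 11220 CPM.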

How the data were processed

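Stranded total RNA libraries of 6 liver tumor samples were sequenced, per the labels' protocols. The authors deposited 1 table of expected counts per gene, that is, estimated and unnormalized reads; the tools named per the submitters' processing notes are RSEM, STAR, cutadapt and Picard, with build mm10 and no versions, and 12.3% of the values are not whole. Counts were rounded. The sources used here do not say if strand was used in counting; 13 of the 41 genes overlap exons of another gene and 11 have values that are not whole, so reads there may be split.

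Genes kept by filterByExpr (minimum count 10; 17012 genes) had TMM scaling and a two-sided edgeR quasi-likelihood fit (version 4.0.16, R 4.3.3), no covariates and Benjamini-Hochberg adjustment at 0.05. SE is the absolute log2 difference over the square root of F. For median log2 levels the prior count was 2. Alternatives were limma-voom (limma 3.58.1) and DESeq2 1.42.0, and the tests were checked on simulated counts. No set test was made. Of all genes, 47224 matched GENCODE M21 (GRCm38) by Ensembl ID, including all 41; coordinates and exon lengths come from it. Promoters come from RefSeq (GRCm38.p6).

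The members and lists were chosen with earlier results of these data known. Values per library are given for Ccnb1, Cdk1, Top2a, Mki67, Birc5 and Foxm1, for the gene of highest mean CPM in each role, and for the 3 genes of smallest p in each direction; other lists name up to 2 genes of smallest p. The lists of B and plasma cell, neutrophil, erythroid, endothelial, stellate, cholangiocyte and fetal liver markers were also run: 0 of their genes passed by edgeR, as 0 of all genes did. DESeq2 called 1 B and plasma cell marker, higher in GSK3326595, and none of the others, where it called 1.09% of all genes higher. At an unadjusted p under 0.05 by edgeR, 3 B and plasma cell and 2 stellate cell markers were higher, against 5.45% of all genes. At that p 1 neutrophil and 1 erythroid marker were lower, against 3.81% of all genes.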

Additional observations from a re-analysis of the deposited data

How the results depend on the processing

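Alternatives covered scaling, filters, other tools, the replicate block and fits without single libraries; the order of libraries under other scaling was added after seeing the data. In every fit 0 of the 41 genes were called, and 0 of all genes by edgeR and limma-voom, but DESeq2 called 286 of all genes; the cause was not tested. The members' median log2 difference ranged from -0.477 to 0.179 without single libraries, and the members lower at an unadjusted p under 0.05 numbered 0 to 13. GSK3326595 replicate 3 was highest for 38 to 39 and GSK3326595 replicate 1 lowest for 26 to 35 of the 41 genes under the scalings tried. Without the bases after the start, where 19 of the 39 CHR matches lay, the CHR share was 34.2%.

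The replicate block called 0 genes and left 2 of the 41 (Ccnb2 and Cenpa) at an unadjusted p under 0.05. Same-numbered libraries correlated at -0.0728, 0.0718 and 0.323 in their deviations from the group means. Vehicle replicate 1 correlated best with GSK3326595 replicate 3, at 0.0675, and vehicle replicate 2 with GSK3326595 replicate 1, at 0.324. With 3 libraries per group these values cannot tell whether libraries were paired, and the labels name no pairing.

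Of 19 genes followed, 14 turned sign in some fit; the cause was not tested. With no scaling Kif11 and Prc1 stood at 0.052 each and Foxm1 at 0.0176; with no filter Kif11 at 0.00605 and Prc1 at 0.000392; at 1 CPM in 3 libraries Kif11 at 0.019 and Prc1 at 0.0137. By limma-voom Cdk1 was -0.0209, Birc5 -0.0329 and Cenpf -0.118, and with the replicate block -0.0169, -0.0292 and -0.114. Without single libraries the ranges were -0.233 to 0.53 for Aurka, -0.451 to 0.349 for Birc5, -0.389 to 0.376 for Bub1b, -0.646 to 0.148 for Ccna2, -0.747 to 0.143 for Ccnb1, -0.634 to 0.0706 for Cdc20, -0.444 to 0.393 for Cdk1, -0.545 to 0.275 for Cenpf, -0.442 to 0.127 for Foxm1, -0.781 to 0.0202 for Hmmr, -0.463 to 0.249 for Kif11, -0.189 to 0.429 for Mad2l1, -0.456 to 0.179 for Prc1 and -0.648 to 0.114 for Top2a. Ccnb2, Cenpa, Cdca3, Mki67 and Pbk kept their sign in all fits.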

Other observations

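Genes that restrain the cell cycle did not move as 1 group. Of 14 tested CDK inhibitors and p53-induced genes, 7 lay above and 7 below 0, and 0 passed the adjusted threshold by edgeR or DESeq2. At an unadjusted p under 0.05 by edgeR, 1 was higher (Zmat3), against 5.45% of all genes. At that p 2 were lower (Cdkn1b and Btg2), against 3.81% of all genes. Zmat3, a p53 target, had 15.3, 18.5 and 15.6 CPM in vehicle and 20.5, 32.4 and 36.5 CPM in GSK3326595 (log2 difference 0.86 ± 0.26 SE, edgeR adjusted p = 0.493). Cdkn1b, the CDK inhibitor p27, had 75.9, 84.4 and 75.4 CPM in vehicle and 56.9, 32.1 and 49.6 CPM in GSK3326595 (-0.77 ± 0.23, edgeR adjusted p = 0.499). Neither Zmat3 nor Cdkn1b overlapped between the groups, which held for 6.72% of all genes in the higher and 7.66% in the lower direction.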
